A study of Mus musculus with 18 samples.

Results

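DNA replication and nucleotide supply genes form the subject here: a list of 37 mouse genes whose products license and fire replication origins, copy the DNA, ripen the new strands, make deoxynucleotides and rebuild chromatin. Members were taken by name, from a list chosen with earlier results of these data known. Each is represented by its brightest probe set with a single gene symbol, where brightness is the average of the 18 arrays. Of the 37 listed genes, 36 could be measured in this way, among 22180 genes in all. Rfc4, a clamp loader subunit, lies only in a probe set shared by several genes and was not used here.

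RNA of sorted mouse cells was hybridised to Affymetrix arrays, with 3 arrays in each of 6 groups. In 5 groups the cells came from lymphomas that arose in the thymus and were sorted into 5 populations: CLP, for common lymphoid progenitors, and DN1, DN2, DN3 and DN4, the double-negative stages. The mice carried an Lck-Cre transgene, had been irradiated at a sublethal dose and were transplanted with bone marrow infected by a retrovirus that encodes NPM-ALK. This fusion kinase drives anaplastic large cell lymphoma in people. The mice were moribund when the tumours were taken. The control group holds LSK cells (negative for lineage markers, positive for SCA1 and KIT) from bone marrow of healthy wild-type mice that were 18 months old. Lck-Cre acts in early T cells, so the fusion kinase was to be switched on in that lineage; the host's own irradiated cells are not told apart from donor cells by the labels. The series design names 3 lymphomas. Whether arrays of the same replicate number in different fractions came from the same animal is not stated, and p-values measure only the spread between these arrays.

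Some labels conflict. The description field of every array names an aged NIPA knockout or wild-type mouse, and on 12 arrays it adds an irradiation of 4 Gy (LSK 3, CLP 1, CLP 2 and all DN1, DN2 and DN3 arrays), which goes against the titles and the genotype fields. The titles were followed. Lymphoma cells and LSK cells also differ in tissue, age, irradiation and transplantation, and those differences cannot be told apart from the lymphoma itself in any comparison with LSK.

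The arrays within a group correlated at 0.968 to 0.993 over all genes, lowest among the CLP arrays. T cell genes Cd3e, Cd3d and Cd3g were well above background in all 5 lymphoma fractions, at group means of 11.93 to 12.92 on the log2 scale, against 4.63 to 5.87 in LSK cells. Cd34 and Meis1, markers of immature blood cells, lay at background in CLP, DN1, DN2 and DN3, against means of 11.1 and 10.37 in LSK cells. Kit, the third marker of these cells and a gene used to sort them, was above background in every fraction, with group means of 10.77 (DN1), 10.68 (DN2), 9.43 (CLP), 8.20 (DN4) and 8.06 (DN3), against 10.90 in LSK. Kit differed from LSK by -0.13 in DN1 and -0.22 in DN2, and neither passed the test (adjusted p of 0.674 and 0.345, limma with Benjamini-Hochberg adjustment). Background was judged from 1108 probe sets of olfactory receptor genes, whose 95th percentile was 5.36 to 5.71 on the different arrays. All 36 replication genes exceeded it on all 18 arrays. The median of all genes was 5.64 to 5.78 on the different arrays, so the shares of all genes given below include many genes near background.

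Before a cell copies its DNA, the origin recognition complex, Cdc6 and Cdt1 load the MCM helicase onto origins. At the start of S phase Cdc45, the GINS complex and Mcm10 switch the helicase on, and DNA polymerase alpha with its primase begins the strands that polymerases delta and epsilon extend. Many of these genes are known targets of E2F transcription factors, which turn them on late in G1, whereas genes of mitosis are known to be driven later through CCAAT boxes and the cell cycle homology region (CHR) in their promoters. In the thymus, normal double-negative T cell precursors go through bursts of division before and after they rearrange their T cell receptor genes.

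Promoter sequences are printed for members that differed strongly among the lymphoma fractions, to show where the E2F letters stand in them. RefSeq windows on GRCm38.p6, each from 250 bases before to 50 bases after an annotated start, were found for 29 of the 36 genes. Some genes have more than 1 window, 33 in all, and a gene was counted if any of its windows held a motif. The windows shown for Cdc6 and Lig1 lie inside the gene bounds, downstream of the outermost start. Shown are the 4 genes with an 8-letter E2F motif that had the smallest p in the test for any difference among fractions, and Pola2, the gene with the smallest p in that test that has no searched E2F motif. The Pola2 window does hold TTTGGCGG, which differs from the searched TTTGGCGC in its last letter only. Lig1 holds these letters too, on the opposite strand, and they are not marked. The windows are chr11:98907901-98908200 on the plus strand for Cdc6, chr7:13278576-13278875 on the plus strand for Lig1, chr8:75109259-75109558 on the plus strand for Mcm5, chr7:44548766-44549065 on the minus strand for Pold1 and chr19:5964157-5964456 on the minus strand for Pola2. Each sequence reads 5′ to 3′ along the gene, and capitals mark the 8-letter E2F motif.
Cdc6: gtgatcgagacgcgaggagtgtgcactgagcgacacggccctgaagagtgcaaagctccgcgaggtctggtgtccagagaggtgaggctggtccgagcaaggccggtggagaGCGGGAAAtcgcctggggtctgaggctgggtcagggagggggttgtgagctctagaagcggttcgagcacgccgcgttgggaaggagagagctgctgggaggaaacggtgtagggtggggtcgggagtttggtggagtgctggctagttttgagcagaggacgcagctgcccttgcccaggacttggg
Lig1: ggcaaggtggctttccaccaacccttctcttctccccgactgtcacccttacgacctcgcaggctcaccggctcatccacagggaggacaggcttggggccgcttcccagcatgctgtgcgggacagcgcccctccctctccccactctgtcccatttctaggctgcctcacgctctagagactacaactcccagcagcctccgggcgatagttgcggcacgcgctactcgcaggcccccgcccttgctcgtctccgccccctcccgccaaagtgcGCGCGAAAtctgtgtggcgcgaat
Mcm5: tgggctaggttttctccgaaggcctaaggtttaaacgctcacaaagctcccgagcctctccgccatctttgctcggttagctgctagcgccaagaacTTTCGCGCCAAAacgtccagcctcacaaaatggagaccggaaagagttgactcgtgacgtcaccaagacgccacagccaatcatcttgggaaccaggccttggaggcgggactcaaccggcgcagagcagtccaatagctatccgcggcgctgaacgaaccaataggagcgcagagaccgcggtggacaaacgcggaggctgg
Pold1: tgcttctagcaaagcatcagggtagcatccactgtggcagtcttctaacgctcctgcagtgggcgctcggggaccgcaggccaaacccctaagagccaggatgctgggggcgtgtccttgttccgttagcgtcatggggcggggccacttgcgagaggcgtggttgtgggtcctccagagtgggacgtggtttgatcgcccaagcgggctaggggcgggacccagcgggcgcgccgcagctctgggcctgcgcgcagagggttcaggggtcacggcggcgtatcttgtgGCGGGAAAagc
Pola2: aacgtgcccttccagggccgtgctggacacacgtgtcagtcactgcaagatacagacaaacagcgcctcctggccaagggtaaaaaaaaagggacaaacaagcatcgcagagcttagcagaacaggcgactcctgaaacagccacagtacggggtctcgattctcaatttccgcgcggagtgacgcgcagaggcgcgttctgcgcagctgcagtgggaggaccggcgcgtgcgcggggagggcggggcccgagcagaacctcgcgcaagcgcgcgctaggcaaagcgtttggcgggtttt

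In Cdc6 the motif lies 138 to 131 bases before the start. Lig1 and Pold1 hold it after the start, at bases 27 to 34 and 40 to 47. In Mcm5 a pair of motifs on opposite strands overlaps, covering bases 153 to 146 and 149 to 142 before the start. Searched on both strands, an 8-letter E2F motif (TTTGGCGC, TTTCCCGC, TTTGCCGC or TTTCGCGC) was present in 12 of 29 replication genes (41.4%), in 1 of 12 mitosis genes (8.3%) and in 704 of 27025 genes of the table (2.6%). The 7-letter forms, each 8-letter motif without its first T and therefore contained in every 8-letter match, were present in 19 of 29 replication genes (65.5%), 16.7% of mitosis genes and 10.9% of all genes. The mitosis genes were the reverse: a CHR (TTTGAA) stood in 9 of 12 of them (75%), in 3 of 29 replication genes (10.3%) and in 20.2% of all genes. CCAAT was found in 58.6% of replication genes, 91.7% of mitosis genes and 41.1% of all genes. The median GC content of the windows was 57.3% for replication genes, 57.7% for mitosis genes and 52.7% for all genes. A match describes the letters only and shows no binding of a factor.

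**Figure D1:**
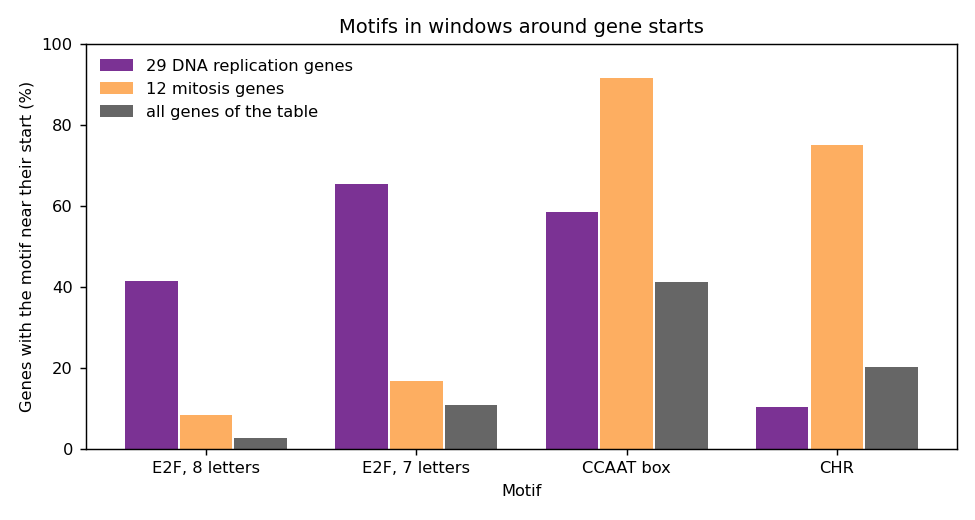
Share of genes (%, vertical axis) with each motif in any window from 250 bases before to 50 bases after an annotated start. Bars stand for 29 replication genes, 12 mitosis genes and all 27025 genes of the promoter table. The E2F bars are tallest for replication genes, at 41.4% and 65.5%, and the CHR bar is tallest for mitosis genes, at 75%.

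All values that follow are log2 signals or differences of them, on which a difference of 1 is a 2-fold change; limma's test was used throughout, with Benjamini-Hochberg adjustment over all 22180 genes and a threshold of 0.05. The median of the 36 replication genes relative to the LSK mean lay at 0.77 to 1.03 on the CLP arrays, at -0.10 to 0.06 on the DN1 arrays, at 0.72 to 0.87 on the DN2 arrays, at 0.81 to 1.08 on the DN3 arrays and at 0.54 to 0.66 on the DN4 arrays, against -0.22 to 0.15 on the LSK arrays. Thus 4 of the 5 fractions lay above LSK in every array, and the DN1 arrays lay among the LSK arrays. By group means, CLP was the highest of the 6 groups for 22 genes, DN3 for 12 and DN2 for 2 (Mcm7 and Chaf1a). DN1 was the lowest of the 5 fractions for 34 genes, and DN4 was the lowest for the other two, Prim2 and Pole2.

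**Figure D2:**
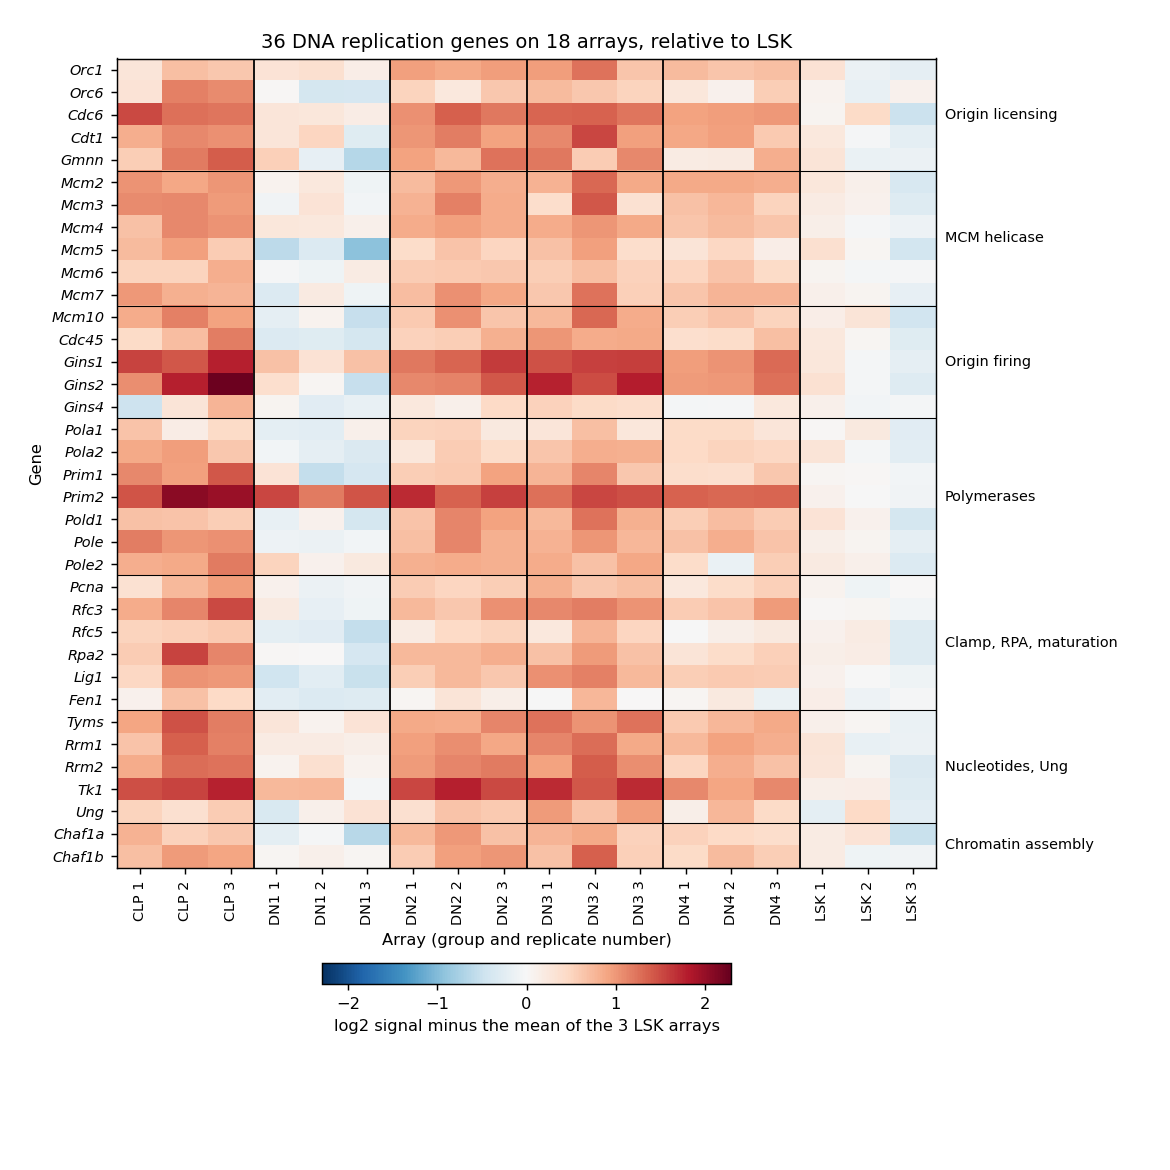
Log2 signal of the 36 replication genes (rows, grouped by role) on each of the 18 arrays (columns), minus the mean of the 3 LSK arrays. The 3 DN1 columns are pale in nearly every row, while the CLP, DN2, DN3 and DN4 columns are red in most rows; Prim2 is red in DN1 too.

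Set against LSK cells, the lymphoma fractions together carried higher levels of most replication genes. Over all 5 fractions, 29 of 36 genes rose and none fell, where 13.1% of all genes rose and 15.8% fell; at an unadjusted p under 0.05, 32 rose and none fell. The median difference was 0.64, against 0.05 over all genes. The differences lay between 0.12 for Fen1, which did not pass the test, and 1.51 for Prim2. The 7 genes that did not pass were Mcm5, Gins4, Rfc5, Pola1, Fen1, Chaf1a and Ung. In these sorted bulk samples, a different share of cycling cells and a different amount of each RNA per cell cannot be told apart.

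Taken by fraction, CLP had 28 of 36 genes higher than LSK (6.54% of all genes were higher and 11.2% lower). DN2 had 29 genes higher (11.4% of all genes higher, 14% lower), DN3 had 32 (11.4% and 13.1%) and DN4 had 25 (11.8% and 14.9%). None was lower in these 4 fractions, nor at an unadjusted p under 0.05. The median difference was 0.95 for CLP, 0.84 for DN2, 0.89 for DN3 and 0.59 for DN4, where all genes gave 0.07, 0.04, 0.05 and 0.05. DN1 stood apart, with 2 genes higher (background 7.45%) and none lower (background 12.3%) and a median difference of -0.04, against 0.02 over all genes. Those 2 were Prim2 at 1.40 (SE 0.14, adjusted p = 3.71e-05) and Gins1 at 0.55 (SE 0.17, adjusted p = 0.0389). At an unadjusted p under 0.05, 2 genes were higher in DN1 and 2 were lower. The lower pair was Mcm5 and Lig1, at -0.62 and -0.41, with adjusted p of 0.0731 and 0.0701. These comparisons share the same 3 LSK arrays. Gins1 missed the threshold when DN1 1, DN1 3, LSK 2 or LSK 3 was left out, with adjusted p of 0.0913 to 0.135, and Mcm5 passed it as lower under the filter on low values, with the replicate block, with all 18 arrays in 1 model and without LSK 3 (adjusted p of 0.0199 to 0.0485).

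**Figure D3:**
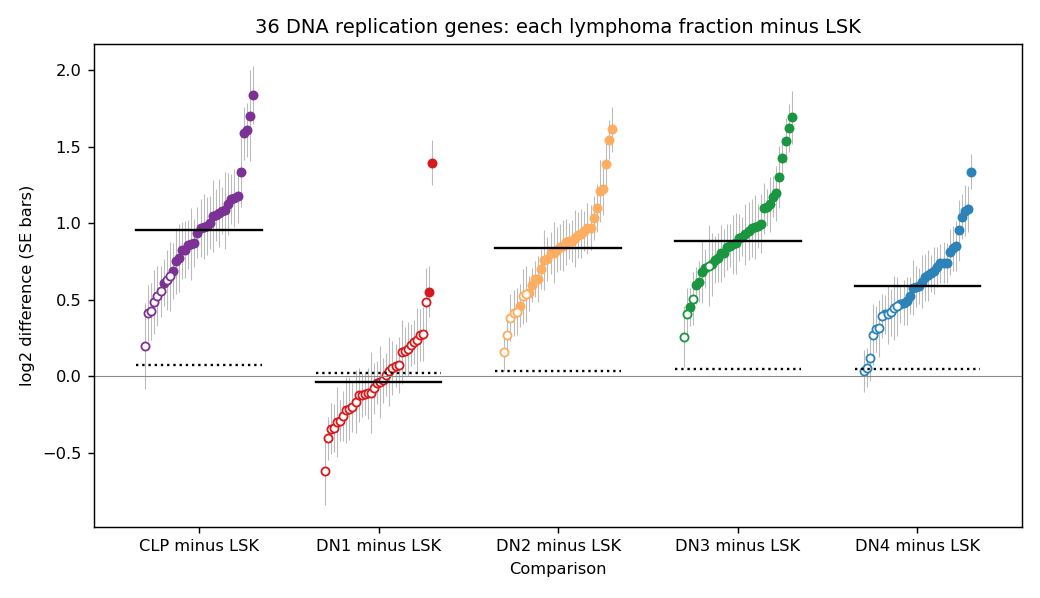
Difference from LSK on the log2 scale (vertical axis, SE bars) for each of the 36 replication genes in each lymphoma fraction, sorted by size; filled points passed the test, the solid line is the median of the 36 genes and the dotted line the median of all genes. The DN1 points centre on -0.04, while the other fractions have medians of 0.59 to 0.95.

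Array by array, the same groups separated. The 12 arrays of CLP, DN2, DN3 and DN4 all exceeded all 3 LSK arrays for 25 of the 36 genes (8.26% of all genes did). For DN1, all 3 arrays exceeded the 3 LSK arrays for 2 genes (16.3% of all genes) and lay below them for 3, Cdc45, Lig1 and Fen1 (18.8% of all genes). LSK 3 was the lowest of the LSK arrays for 28 of the 36 genes, and the median SD of the replication genes was 0.131 to 0.209 in the lymphoma fractions and 0.251 in LSK. Markers of other cell types also differed: the summed log2 level of 4 granulocyte markers was 6.93 to 7.57 in the lymphoma fractions and 11.54 to 11.95 in LSK, and that of 2 erythroid markers was 5.75 to 6.46 in the lymphoma fractions and 7.5 to 8.13 in LSK. The summed level of 4 macrophage markers overlapped, at 8.28 to 9.62 in the lymphoma fractions and 9.55 to 9.7 in LSK, but over all fractions Cd68 rose and Csf1r, Adgre1 and Lyz2 fell. Csf1r group means were 5.43 to 5.62 in the lymphoma fractions, against 8.14 in LSK. The part of these markers in the comparisons with LSK was not tested.

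Among the lymphoma fractions themselves, which involve no LSK array, 31 of 36 genes differed (F test over 15 arrays; 7.88% of all genes did). Their group means spanned a median of 1.01, against 0.32 over all genes. Gins4, Pola1, Prim2, Fen1 and Ung did not pass. DN1 accounted for the low end: all 3 DN1 arrays lay below all 12 other lymphoma arrays for 30 of the 36 genes (2.08% of all genes), the exceptions being Gins4, Orc1, Prim2, Pole2, Gmnn and Ung. DN1 minus the mean of CLP, DN2, DN3 and DN4, a comparison added after the data were seen, was lower for 32 of 36 genes (3.78% of all genes) and higher for none (3.11% of all genes), with a median of -0.84, against -0.03 over all genes. The differences lay between -1.46 for Gins2 and -0.14 for Prim2.

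Marker levels moved with this. The summed log2 level of Cd3e, Cd3d and Cd3g was 13.58 to 13.68 on the DN1 arrays, against 13.82 to 14.36 on the other lymphoma arrays, with all 3 genes above background in every fraction; Cd3e and Cd3g passed the test as lower, at -0.53 and -0.50. Kit was 10.61 to 10.90 in DN1, 10.59 to 10.79 in DN2 and 7.90 to 9.72 in CLP, DN3 and DN4, and was 1.68 higher in DN1 than in the mean of the other fractions (adjusted p = 4.23e-08). Of 4 genes listed for the sort gates, 3 were higher in DN1 than in that mean (Kit, Cd44 and Il7r) and 1, Il2ra, was lower. Il2ra averaged 9.04 in DN1, 11.81 in DN2, 12.02 in DN3, 8.31 in CLP and 8.71 in DN4. Il7r averaged 9.75 in DN1 and 7.99 to 8.86 in the other fractions. Cd44 averaged 6.64 in DN1 and 5.95 in DN2, and lay at background in CLP, DN3 and DN4. B cell markers (3 genes, Ms4a1 at background) summed to 6.62 to 7.2 in DN1 and 6.31 to 6.82 in the others. Macrophage markers (4 genes, Adgre1 and Lyz2 at background in DN1) summed to 8.75 to 9.62 in DN1 and 8.28 to 9.51 in the others. Granulocyte markers (4 genes, Mpo and S100a8 at background) summed to 7.09 to 7.57 in DN1 and 6.93 to 7.44 in the others. These ranges overlapped, unlike those of the T cell genes. Erythroid markers (2 genes, Car1 at background) summed to 5.75 to 6.46 in DN1 and 6.0 to 6.21 in the others. Stromal and epithelial markers (4 genes, Epcam at background) summed to 10.0 to 10.43 in DN1 and 9.84 to 10.33 in the others, and these ranges overlapped too. Cd68 was the brightest macrophage marker and Pecam1 the brightest stromal or epithelial one, so the sums of these lists mostly reflect them. None of the B cell, macrophage, granulocyte or erythroid markers passed in this comparison, and 1 stromal or epithelial marker, Col1a2, was lower. Its group means were 6.15 in DN1, 5.93 in DN2, 6.88 in CLP, 7.15 in DN3 and 7.31 in DN4. The part of these markers in the replication gene levels was not tested.

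Along the DN series the replication genes differed by a median of 0.83 in DN2 over DN1, 0.11 in DN3 over DN2 and -0.35 in DN4 over DN3. Of the 36 genes, 26 rose in DN2 over DN1 (0.708% of all genes) and none fell (0.645% of all genes; also none at an unadjusted p under 0.05), and the median over all genes was 0.02. Gins2 showed 1.26 (SE 0.25, adjusted p = 0.0145), Mcm5 1.14 (SE 0.17, adjusted p = 0.00176) and Tk1 1.13 (SE 0.18, adjusted p = 0.00346). The count of 26 fell to 11 without DN2 2 and to 14 without DN2 3 or without DN1 3, all 36 differences being positive with all arrays. In DN3 over DN2 no gene rose (1.3% of all genes) or fell (1.15% of all genes), although 28 of 36 differences were positive; at an unadjusted p under 0.05, 2 genes were higher. In DN4 over DN3 none passed either (0% of all genes higher, 0.00451% lower), all 36 differences were negative, and 13 genes were lower at an unadjusted p under 0.05. All 3 DN4 arrays lay below all 3 DN3 arrays for 20 genes (6.85% of all genes).

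The comparisons of CLP and of DN2 with the other fractions were chosen with earlier results of these data known. CLP minus the mean of the DN fractions was positive for 35 of 36 genes, with a median of 0.38, against 0.02 over all genes. It passed for 8 genes (1.51% of all genes higher, 2.93% lower) and none was lower: Mcm5, Cdc6, Gins1, Rfc3, Pola2, Prim1, Pole and Rpa2. This count was unsteady: it was 15 without CLP 1, 3 without CLP 2, 4 without CLP 3, DN2 2, DN3 1 or DN4 1, 5 without DN2 1 or DN3 3, and 14 after quantile normalization. For none of the 36 genes did all 3 CLP arrays exceed all 12 DN arrays (0.803% of all genes). DN2 minus the mean of the other fractions passed for none (0.875% of all genes higher, 0.825% lower), with 8 higher and none lower at an unadjusted p under 0.05.

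Licensing loads the helicase onto origins before S phase. All 5 genes of this role (Orc1, Orc6, Cdc6, Cdt1 and Gmnn) rose over all fractions against LSK, by 0.40 to 1.01, all 5 differed among fractions, and none passed in DN1 against LSK. Orc1 did not pass in CLP against LSK, Orc6 and Gmnn passed neither in DN4 against LSK nor in DN2 over DN1, and Orc1 and Gmnn had DN1 arrays that overlapped other fractions. Cdc6, the ATPase that loads the helicase with Cdt1 and whose gene lies on chromosome 11, had the smallest F test p of the members (adjusted p = 3.43e-05). Its signal was 9.30, 9.06 and 9.02 in CLP, 8.07, 8.05 and 7.95 in DN1, 8.84, 9.16 and 9.0 in DN2, 9.12, 9.14 and 9.02 in DN3 and 8.71, 8.74 and 8.79 in DN4, against 7.85, 8.22 and 7.29 in LSK. No DN1 array reached any array of the other fractions, and the DN1 arrays overlapped the wide spread of the LSK arrays. Cdc6 was 0.97 higher in DN2 than in DN1 (SE 0.12, adjusted p = 0.000413) and 0.24 higher in DN1 than in LSK (SE 0.21, adjusted p = 0.509). Geminin (Gmnn), which holds Cdt1 back after origins have fired, averaged 8.76 in DN1 and 9.27 to 9.91 in the other fractions, against 8.86 in LSK.

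The helicase that opens the DNA is a ring of 6 MCM subunits. All 6 differed among fractions, all 6 rose in CLP against LSK, and none passed in DN1 against LSK. DN2, DN3 and DN4 had 5 each that rose, all but Mcm5 in DN2 and DN4 and all but Mcm3 in DN3. The Mcm5 calls were unsteady. In CLP it missed the threshold after quantile normalization and without CLP 1, CLP 2, CLP 3, LSK 2 or LSK 3 (adjusted p of 0.0511 to 0.136). In DN3 it missed without DN3 1, DN3 2, LSK 2 or LSK 3 (0.0707 to 0.101). In DN2 it passed with the filter, median centring, the replicate block or the trended prior and without LSK 1 (0.0101 to 0.0447). The DN1 differences from LSK lay between -0.62 for Mcm5 and 0.21. Mcm5, on chromosome 8, had the smallest F test p of the 6: its signal was 10.66, 10.87 and 10.51 in CLP, 9.33, 9.61 and 8.99 in DN1, 10.35, 10.58 and 10.43 in DN2, 10.61, 10.88 and 10.34 in DN3 and 10.23, 10.41 and 10.09 in DN4, against 10.30, 9.98 and 9.51 in LSK. DN1 was clear of the other fractions, and the LSK arrays overlapped both. Over all fractions Mcm5 did not pass against LSK (0.33, SE 0.19, adjusted p = 0.231). Mcm3 in DN3 depended on its arrays, with an SD of 0.62 about a mean of 10.13, and its DN3 difference of 0.73 did not pass (adjusted p = 0.0709). Mcm6 had the narrowest span of group means within the helicase, 0.60 over the fractions.

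Of the origin firing factors, Gins1 and Gins2, subunits of the GINS complex that joins the helicase, showed some of the widest differences. Gins2, on chromosome 8, was at 7.92, 8.64 and 9.12 in CLP, 7.24, 6.90 and 6.32 in DN1, 7.96, 8.0 and 8.28 in DN2, 8.63, 8.35 and 8.67 in DN3 and 7.84, 7.86 and 8.12 in DN4, against 7.20, 6.81 and 6.56 in LSK. DN1 and LSK covered nearly the same range, and every other lymphoma array lay higher. The fractions spanned 1.74, the widest of the members, and the difference over all fractions was 1.13 (SE 0.15, adjusted p = 0.000387). Gins1, on chromosome 2, read 8.69, 8.58 and 8.93 in CLP, 7.81, 7.47 and 7.81 in DN1, 8.35, 8.49 and 8.75 in DN2, 8.60, 8.72 and 8.73 in DN3 and 8.10, 8.18 and 8.44 in DN4, against 7.40, 7.09 and 6.94 in LSK. Here DN1 lay between LSK and the other fractions and touched neither.

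Cdc45, which completes the active helicase with MCM and GINS, was at or under the lowest LSK array in DN1. Its signal was 8.45, 8.73 and 9.19 in CLP, 7.71, 7.73 and 7.61 in DN1, 8.54, 8.59 and 8.83 in DN2, 9.03, 8.87 and 8.88 in DN3 and 8.40, 8.43 and 8.71 in DN4, against 8.26, 8.06 and 7.73 in LSK. The DN1 difference from LSK, -0.34 (SE 0.16), did not pass (adjusted p = 0.187), whereas DN3 exceeded LSK by 0.91 (adjusted p = 0.0011). Mcm10 averaged 7.10 in DN1 and 7.90 to 8.30 in the other fractions, against 7.32 in LSK. Gins4 was the exception of its complex, with group means of 9.36 to 9.94 in the lymphoma fractions, against 9.48 in LSK, and an F test p that did not pass (adjusted p = 0.51).

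**Figure D4:**
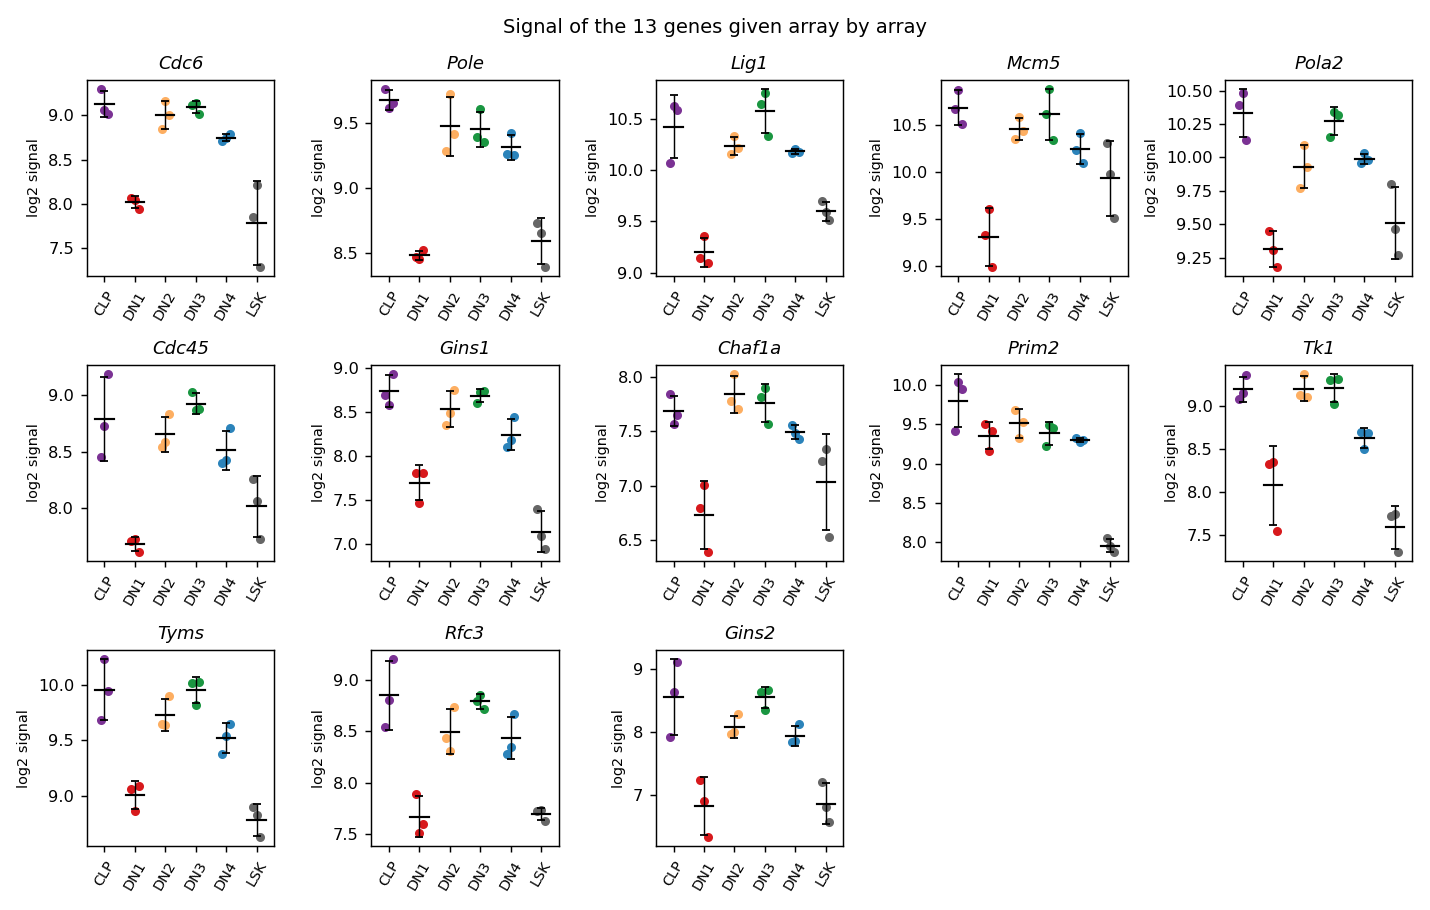
Log2 signal (vertical axes, which differ between panels) of 13 replication genes on each array, by group; the long bar is the mean and the whiskers the SD of 3 arrays. DN1 lies below CLP, DN2, DN3 and DN4 in every panel except Prim2, where the 5 lymphoma fractions lie together between 9.16 and 10.04 and LSK between 7.88 and 8.05.

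The polymerase genes split over Prim2. Of the 7 genes here, 6 rose over all fractions against LSK (all but Pola1) and 5 differed among fractions (all but Pola1 and Prim2). Prim2, the large primase subunit, on chromosome 1, was at 9.41, 10.04 and 9.95 in CLP, 9.50, 9.16 and 9.41 in DN1, 9.68, 9.32 and 9.53 in DN2, 9.22, 9.49 and 9.45 in DN3 and 9.32, 9.28 and 9.30 in DN4, against 8.05, 7.95 and 7.88 in LSK. Every lymphoma array, DN1 included, was more than 1 above every LSK array, and no fraction stood apart from all the others. It was the member with the smallest p against LSK (1.51, SE 0.09, adjusted p = 2.09e-06), and its F test did not pass (adjusted p = 0.285; adjusted p = 0.028 without CLP 1). Its partner Prim1, the catalytic primase subunit, averaged 7.78 in DN1 and 8.46 to 9.15 in the other fractions, against 7.99 in LSK.

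Pole, the catalytic subunit of the leading-strand polymerase epsilon, on chromosome 5, read 9.76, 9.61 and 9.65 in CLP, 8.47, 8.45 and 8.52 in DN1, 9.28, 9.72 and 9.41 in DN2, 9.39, 9.60 and 9.35 in DN3 and 9.26, 9.42 and 9.25 in DN4, against 8.73, 8.65 and 8.39 in LSK. DN1 lay inside the LSK range, and DN2 was 0.99 above DN1 (SE 0.13, adjusted p = 0.000622). A second Pole probe set stayed at background on all arrays, and the mean of both probe sets gave 0.58 for DN2 over DN1 (adjusted p = 0.0664). Pola2, a regulatory subunit of polymerase alpha on chromosome 19, was at 10.39, 10.48 and 10.13 in CLP, 9.45, 9.31 and 9.18 in DN1, 9.77, 10.09 and 9.93 in DN2, 10.15, 10.34 and 10.32 in DN3 and 9.96, 10.03 and 9.98 in DN4, against 9.80, 9.46 and 9.27 in LSK. DN2 overlapped the LSK range for Pola2, and its difference of 0.42 did not pass (adjusted p = 0.0692). Its DN2 over DN1 difference of 0.62 (adjusted p = 0.0252) did not pass after quantile normalization or median centring (adjusted p of 0.0734 and 0.0514).

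Clamp, single-strand binding and strand-ripening genes had the lowest DN1 median relative to LSK of the 7 roles, -0.21. In DN1 all 6 differences were negative, at -0.02 to -0.41, though none passed; 5 of the 6 differed among fractions, all but Fen1. Lig1, the ligase that seals Okazaki fragments, on chromosome 7, was at 10.07, 10.63 and 10.59 in CLP, 9.14, 9.36 and 9.09 in DN1, 10.16, 10.34 and 10.22 in DN2, 10.65, 10.76 and 10.34 in DN3 and 10.17, 10.21 and 10.18 in DN4, against 9.70, 9.59 and 9.51 in LSK. The 3 groups of levels did not overlap: DN1 lowest, LSK next and the other 4 fractions on top. Lig1 was 1.04 higher in DN2 than in DN1 (SE 0.16, adjusted p = 0.00176) and 0.64 higher in DN2 than in LSK (SE 0.12, adjusted p = 0.00191). Rfc3, a clamp loader subunit on chromosome 5, was at 8.54, 8.81 and 9.21 in CLP, 7.89, 7.51 and 7.59 in DN1, 8.44, 8.31 and 8.74 in DN2, 8.80, 8.86 and 8.72 in DN3 and 8.28, 8.35 and 8.67 in DN4, against 7.72, 7.73 and 7.62 in LSK. DN1 spread around the narrow LSK values and reached no array of the other fractions. Pcna, the sliding clamp, had the highest signal of the members, with group means of 11.43 in DN1 and 11.87 to 12.17 in the other fractions, against 11.47 in LSK. Fen1, the flap endonuclease, did not pass in any fraction against LSK (differences of -0.29 to 0.41).

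Nucleotide genes (Tyms, Rrm1, Rrm2, Tk1 and Ung) had the highest median difference of the 7 roles over all fractions against LSK, 0.84, and 4 of the 5 rose. Tk1, the thymidine kinase of the salvage route, on chromosome 11, was at 9.08, 9.15 and 9.36 in CLP, 8.33, 8.35 and 7.55 in DN1, 9.13, 9.37 and 9.11 in DN2, 9.30, 9.02 and 9.31 in DN3 and 8.70, 8.50 and 8.69 in DN4, against 7.72, 7.75 and 7.30 in LSK. All arrays of CLP, DN2, DN3 and DN4 lay above LSK, whereas DN1 3 fell into the LSK range while DN1 1 and DN1 2 did not. Over all fractions Tk1 was 1.28 higher (SE 0.13, adjusted p = 5.74e-05), and in DN1 alone 0.49 higher without passing (SE 0.22, adjusted p = 0.17). Tyms, the thymidylate synthase of the de novo route, on chromosome 5, was at 9.69, 10.24 and 9.95 in CLP, 9.06, 8.86 and 9.09 in DN1, 9.65, 9.64 and 9.90 in DN2, 10.02, 9.82 and 10.03 in DN3 and 9.38, 9.54 and 9.65 in DN4, against 8.90, 8.82 and 8.62 in LSK. DN1 overlapped the top of the LSK range. The ribonucleotide reductase subunits Rrm1 and Rrm2 rose by 0.83 and 0.84 over all fractions (adjusted p of 0.00159 and 0.00308), with DN1 means of 8.55 and 8.05 and LSK means of 8.38 and 7.86. Ung, which removes uracil from DNA, passed against LSK only in DN3 (0.86, adjusted p = 0.00644), and whether that differs from the other fractions did not pass in the F test (adjusted p = 0.073).

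Chaf1a and Chaf1b, subunits of the chromatin assembly factor that places histones behind the fork, both differed among fractions. Chaf1a, on chromosome 17, was at 7.84, 7.57 and 7.65 in CLP, 6.80, 7.01 and 6.39 in DN1, 7.78, 8.03 and 7.71 in DN2, 7.82, 7.90 and 7.57 in DN3 and 7.56, 7.49 and 7.43 in DN4, against 7.23, 7.34 and 6.53 in LSK. DN1 overlapped the scattered LSK arrays, and DN2 exceeded DN1 by 1.11 (SE 0.16, adjusted p = 0.00107). Chaf1b averaged 8.21 in DN1 and 8.73 to 9.01 in the other fractions, against 8.14 in LSK.

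Other genes of the same pathways are given as counts, beside the shares of all genes: over all fractions against LSK 13.1% rose and 15.8% fell, 7.88% differed among fractions, and 3.78% were lower and 3.11% higher in DN1 than in the mean of the other fractions. Among 16 further licensing and firing genes, 5 rose, 1 fell and 3 differed among fractions, and 4 were lower and none higher in DN1 than in the mean of the other fractions. Orc5, an origin recognition subunit, was 0.77 higher (SE 0.10, adjusted p = 0.000259), and Donson was 0.36 lower (adjusted p = 0.0465). By group means Orc5 was highest in DN1, at 7.88, with 7.21 to 7.79 in the other fractions and 6.87 in LSK. Of 20 further polymerase, clamp and fork genes, 6 rose, 3 fell (Rfc2, Pold4 and Top1) and 8 differed among fractions, 11 of them being lower in DN1 than in the mean of the other fractions. Tipin, a fork protection factor, averaged 8.02 in DN1 and 8.94 to 9.78 in the other fractions, against 8.02 in LSK. Of 8 further chromatin genes, 5 rose, none fell and 6 were lower in DN1; Uhrf1, which carries DNA methylation through replication, averaged 8.77 in DN1 and 9.74 to 10.00 in the other fractions, against 8.53 in LSK.

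Of 16 further nucleotide genes, 8 rose and 4 fell over all fractions against LSK (13.1% and 15.8% of all genes), and 4 differed among fractions (7.88% of all genes). In DN1, 4 were lower and 1 higher than in the mean of the other fractions (3.78% and 3.11% of all genes). Dut, which removes dUTP, rose by 1.05 (SE 0.12, adjusted p = 0.000145), and Nme1, a nucleoside diphosphate kinase, by 1.03 (SE 0.15, adjusted p = 0.000691). Samhd1, which breaks deoxynucleotides down, was highest in DN1 among the lymphoma fractions. Its signal was 4.75, 4.56 and 4.92 in CLP, 6.82, 7.15 and 7.12 in DN1, 5.11, 5.32 and 5.18 in DN2, 4.44, 4.34 and 4.69 in DN3 and 4.73, 4.65 and 4.79 in DN4, against 9.04, 8.80 and 8.95 in LSK. DN1 lay apart on both sides, below LSK and above the other fractions, whose arrays were all at background. Where a fraction is at background only a bound can be given, with the background level of each array in place of a lower signal: CLP was at least 9.84-fold lower than LSK, DN2 at least 10.8-fold lower, DN3 at least 10.14-fold lower and DN4 at least 10.29-fold lower. DN1 was measured, and its difference from LSK was -1.90 (SE 0.15, adjusted p = 4.12e-06). Among fractions Samhd1 differed with an adjusted F test p of 6.38e-09.

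Of 17 regulators of the program, 5 rose and 3 fell over all fractions (13.1% and 15.8% of all genes), so that the share that fell was near that of all genes. Among fractions 12 differed (7.88% of all genes), with 10 lower and 2 higher in DN1 than in the mean of the others (3.78% and 3.11% of all genes). Skp2, an F-box protein that marks cell cycle inhibitors for destruction, was 0.90 lower in DN1 (SE 0.11, adjusted p = 1.89e-05), and Chek1, the replication checkpoint kinase, was 1.22 lower (SE 0.14, adjusted p = 1.08e-05). E2f2, an activating E2F, was 0.71 higher in DN1 than in that mean (SE 0.16, adjusted p = 0.0108). DN2 was near DN1, with E2f2 group means of 7.46 (DN1), 7.42 (DN2), 6.81 (DN3), 6.60 (CLP) and 6.17 (DN4), against 6.26 in LSK. E2f7, a repressing E2F, had lymphoma group means of 5.81 (DN4) to 6.63 (DN2), DN1 being at 6.10, against 8.20 in LSK (all fractions -2.07, SE 0.13, adjusted p = 2.6e-06).

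Of 15 mitosis genes, 1 rose (Ccnb2, 0.73) and 1 fell (Cenpa, -0.47) over all fractions against LSK (13.1% and 15.8% of all genes), and 4 differed among fractions (7.88% of all genes). In DN1, 3 were lower and none higher than in the mean of the other fractions (3.78% and 3.11% of all genes). In CLP against LSK none of the 15 rose or fell (6.54% and 11.2% of all genes). DN1 had 1 higher and 1 lower (7.45% and 12.3% of all genes), and so did DN4 (11.8% and 14.9%). In DN3 against LSK 4 of 15 rose (11.4% of all genes). In DN2 against LSK 8 of 15 rose (11.4% of all genes), among them Ccnb2 at 0.98 and Plk1 at 0.81. Their median relative to the LSK mean was -0.10, 0.52 and 0.46 on CLP arrays 1, 2 and 3, -0.23 to -0.04 in DN1, 0.35 to 0.72 in DN2, 0.20 to 0.64 in DN3 and -0.32 to 0.12 in DN4, against -0.28 to 0.26 in LSK. DN4 arrays thus overlapped LSK for mitosis genes and lay above it for replication genes, at 0.54 to 0.66. In DN3 over DN2 none of the 15 differences was positive (median -0.20), where 28 of 36 replication genes were positive (median 0.11); no gene of either list passed. Cdk1, the mitotic kinase, had group means of 8.71 in DN1 and 9.11 in DN4, against 9.50 in LSK. In CLP, DN2 and DN3 it averaged 9.74 to 10.07. Cdk1 was 0.97 lower in DN1 than in the mean of the other fractions (SE 0.18, adjusted p = 0.00201). Aurkb averaged 9.12 in DN1 and 9.54 to 10.25 in the other fractions, and Bub1 7.53 and 7.65 to 8.34. Of the 12 mitosis genes with a promoter window, only Cdk1 held an 8-letter E2F motif, beside CCAAT and a CHR. The Bub1 window held CCAAT but no such E2F motif. The part of these motifs in the levels was not tested. A difference between the lists was not tested.

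**Figure D5:**
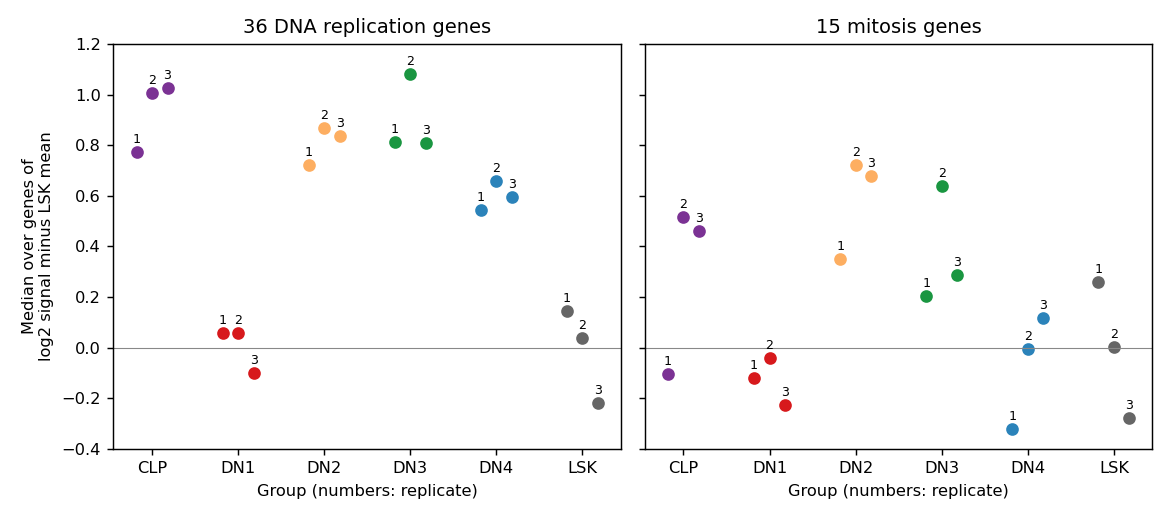
Median over 36 replication genes (left) and 15 mitosis genes (right) of the log2 signal minus the LSK mean (vertical axis) on each array, numbered by replicate within each group. On the left DN1 lies among the LSK arrays, at -0.10 to 0.06, and the other fractions lie at 0.54 to 1.08. On the right the DN2 arrays lie at 0.35 to 0.72 and overlap those of CLP and DN3, and DN4 overlaps LSK.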

How the data were processed

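RNA of 18 sorted samples (6 groups of 3) was hybridised to Affymetrix arrays after RNeasy Micro extraction and WT Pico amplification, per the labels. The deposited values are log2 signals, 1 per probe set, which the authors made with oligo and RMA, per the submitters' processing notes; versions and a genome build are not given in the sources used here. Of 41345 probe sets, 23521 carry 1 gene symbol; 1814 carry several and 16010 carry none, and these were left out. The brightest probe set by the mean over 18 arrays stood for each of 22180 genes. RMA brings arrays to a common distribution, so differences are relative to all genes on the array.

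Tests were limma 3.58.1 (R 4.3.3; lmFit and eBayes; two-sided p-values adjusted by Benjamini-Hochberg across 22180 genes, threshold 0.05). For all lymphoma fractions against LSK, the 5 fraction arrays with a given replicate number were averaged first, which leaves 3 values against 3. Each fraction was set against LSK with 3 arrays each. Comparisons among fractions used 1 model of 15 arrays. The test was checked on simulated data. The members, the lists and the comparisons of CLP and of DN2 with the other fractions were chosen with earlier results of these data known. Genes given array by array are the 8 members with the smallest F test p and the 6 with the smallest p against LSK, 13 in all; for each other list the 4 and the 3 were eligible, plus those past the threshold in the opposite direction to most of their list, and other genes were picked after their values were seen. Promoter windows are RefSeq's (GRCm38.p6). Alternatives were a filter on low values, quantile normalization, median centring, the mean of probe sets, a trended and robust prior, the replicate block, all 18 arrays in 1 model, each array left out in turn and, added after the data were seen, CLP left out. The number of arrays limits the precision.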

Additional observations from a re-analysis of the deposited data

Results flagged for a closer look

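The level of the replication genes relative to LSK differed between lymphoma fractions. For 26 of 36 genes (0.708% of all genes) it was higher in DN2 than in DN1. The test was DN2 minus DN1, in which the shared LSK arrays drop out. No group has 4 or more arrays, so single arrays were not screened as outliers.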

How the results depend on the processing

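No count or single-gene result that passed changed direction under the alternatives run. Over single genes and comparisons, 7990 of the results kept their side of the threshold, 131 passed it newly and 303 no longer passed. Members higher in CLP than in the mean of the DN fractions numbered 14 after quantile normalization, against 8, and 3 to 15 with single arrays left out. Members lower in DN1 than in LSK numbered 1, against 0, with the filter on low values, the replicate block and all 18 arrays in 1 model, and 0 to 1 with single arrays left out; those higher numbered 1 to 2. DN2 over DN1 gave 11 to 29 with single arrays left out, against 26. The other counts of members stayed within 1.5 times. With single arrays or a lymphoma replicate number left out, they were 23 to 29 for all fractions against LSK, 19 to 28 for CLP, 27 to 31 for DN2, 30 to 33 for DN3, 19 to 25 for DN4, 23 to 32 for the F test and 28 to 35 for DN1 below the other fractions. Under the other settings they were, in the same order, 26 to 32, 25 to 32, 29 to 33, 32 to 34, 23 to 28, 28 to 32 and 32 to 34. The cause was not tested. Without the CLP arrays, all fractions against LSK gave 26 and the F test 32.

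Same-numbered lymphoma arrays correlated at -0.193 to 0.346 in their deviations from group means (median 0.121, 30 pairs), against a median of -0.073 for 60 pairs of different numbers, and 11 of 15 arrays correlated best with their own number. In DN1 with DN3, DN1 with DN4, DN2 with DN3 and DN3 with DN4 all 3 same-numbered pairs were over 0.1, and in the other 6 pairings of fractions they were not. These values hint at pairing; as the labels do not state it and not every pair was over 0.1, the fits without the block were kept. With the replicate block, members higher than LSK numbered 31, against 29, over all fractions, 25, against 28, in CLP, 3, against 2, in DN1, 32, against 29, in DN2, 34, against 32, in DN3 and 26, against 25, in DN4. DN2 over DN1 gave 27, against 26, the F test 32, against 31, CLP over the DN fractions 10, against 8, and DN1 below the other fractions 34, against 32.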
